A study of Mus musculus with 32 samples.

Results

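Dntt, Rag1 and Rag2 encode the lymphoid-specific proteins of V(D)J recombination, and the peaks of Ikaros, CHD4 and H3K27ac around them were followed in mouse pre-B cells as nuclear Ikaros was induced. A peak belonged to the set when it lay within 100 kb of a gene body, whatever its height, time or target. The genes themselves were picked with earlier results of these data known. The rule took 271 of the 338060 peaks in the 24 deposited lists. Peaks of 1 target that shared at least 1 bp were merged into regions, which gave 51 of 78523 regions. There were 15 Ikaros regions (9 around Dntt and 6 around Rag1 and Rag2), 12 CHD4 regions (8 and 4) and 24 H3K27ac regions (15 and 9).

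The cells were B3, a pre-B line from mouse, transduced by retrovirus with an HA-Ikaros-ERt2 construct. The ERt2 part lets 4-hydroxytamoxifen (4-OHT) induce entry of the fusion protein into the nucleus. Peaks were called before 4-OHT all the same, 7822 and 9527 in the Ikaros lists of untreated cells. What these peaks come from was not tested. The 4 groups were untreated cells (0 h) and cells given 500 nM 4-OHT for 30 min, 1 h or 2 h, each with 2 replicates per target, and every group, including 0 h, carried the construct. HA-Ikaros (also named IKZF1) was captured through its HA tag, so Ikaros without the tag was not measured, and cells without the construct were not among the libraries analysed. Nothing in the labels says that replicates came from separate cultures, so the p-values below measure only the spread between libraries. H3K27ac marked the start sites of the pre-B cell genes Cd79a, Cd79b, Pax5, Ebf1, Vpreb1, Vpreb3, Igll1 and Blnk in all 8 libraries. It marked 1 of 5 T cell genes (Cd3d) and 2 of 4 erythroid genes (Klf1 and Hbb-bs) in all 8, and of 4 myeloid genes only Lyz2 had a peak, in 1 library at 0 h.

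RAG1 and RAG2 form the endonuclease that cuts antigen receptor gene segments at recombination signal sequences, and terminal deoxynucleotidyl transferase, the product of Dntt, adds untemplated nucleotides at the junctions. Ikaros is a zinc-finger transcription factor of lymphocytes that recognises sequences with a GGGAA core. CHD4 is the ATPase of the NuRD complex, which joins nucleosome remodelling to histone deacetylation. H3K27ac is the acetylated histone mark of active promoters and enhancers.

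On mm10, Dntt (ENSMUSG00000025014.13) lies on chr19:41029275-41059525 on the forward strand. Blnk, a B cell adaptor gene, lies upstream of it, at chr19:40928927-40994535 on the reverse strand. Rag2 (ENSMUSG00000032864.4, chr2:101624718-101632529, forward strand) and Rag1 (ENSMUSG00000061311.6, chr2:101638282-101649501, reverse strand) are transcribed towards each other. Both lie inside the annotated gene B230118H07Rik (chr2:101560781-101649532, reverse strand). Traf6, which encodes a signalling ubiquitin ligase, lies beyond the Rag1 start at chr2:101678429-101701669. Opalin and Tll2, on the far side of Dntt, had no peak of any target inside the 100 kb window, and neither had Prr5l beyond Traf6.

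The 5 Ikaros sites on which the account below turns are shown as 200 bases of the GRCm38.p6 reference (RefSeq), forward strand, centred on the summit of the highest peak. Capitals mark GGGAA on either strand, so a reverse-strand copy reads TTCCC. They are the site in Dntt intron 1 that was called before 4-OHT and not at 2 h (chr19:41036622-41036821), the site in Dntt intron 3 that was called in every library (chr19:41039214-41039413), a pair of sites upstream of Rag2 that appeared after 4-OHT (chr2:101599023-101599222 and chr2:101600679-101600878), and the site upstream of Rag1 that was highest before 4-OHT (chr2:101650913-101651112).
Dntt intron 1: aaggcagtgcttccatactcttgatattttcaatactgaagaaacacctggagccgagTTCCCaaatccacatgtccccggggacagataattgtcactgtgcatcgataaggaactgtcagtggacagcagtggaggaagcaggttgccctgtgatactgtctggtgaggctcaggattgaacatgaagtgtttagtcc
Dntt intron 3: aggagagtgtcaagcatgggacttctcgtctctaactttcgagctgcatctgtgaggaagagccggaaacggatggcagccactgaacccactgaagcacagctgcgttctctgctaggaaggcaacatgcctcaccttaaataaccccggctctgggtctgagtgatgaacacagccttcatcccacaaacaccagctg
25.6 kb upstream of Rag2: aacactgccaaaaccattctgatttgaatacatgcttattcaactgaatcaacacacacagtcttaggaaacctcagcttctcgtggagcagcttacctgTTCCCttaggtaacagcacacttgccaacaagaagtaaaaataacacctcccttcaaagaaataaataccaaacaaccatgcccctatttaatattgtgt
23.9 kb upstream of Rag2: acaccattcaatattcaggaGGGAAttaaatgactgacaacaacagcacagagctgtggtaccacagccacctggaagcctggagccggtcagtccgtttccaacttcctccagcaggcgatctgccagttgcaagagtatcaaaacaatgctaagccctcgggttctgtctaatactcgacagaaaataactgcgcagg
1.51 kb upstream of Rag1: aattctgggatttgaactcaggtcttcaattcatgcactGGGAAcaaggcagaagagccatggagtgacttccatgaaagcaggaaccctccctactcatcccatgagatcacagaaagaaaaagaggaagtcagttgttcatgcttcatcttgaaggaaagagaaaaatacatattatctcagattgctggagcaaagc

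The intron 1 window is centred on the summit in 1 h replicate 2 (position 41036722). The 0 h summits of that region, at 41036069 and 41036050, lie outside it. A GGGAA core stood in 4 of these 5 windows. The Dntt intron 3 window, which was called in all 8 libraries, held none of these letters on either strand. The copy 25.6 kb upstream of Rag2 lay 2 bases from the summit, and the copies in the other windows lay 40 to 78 bases away. Over the 15 Ikaros regions at these loci, 10 windows held the core. The share over all 23856 Ikaros regions of the series was 59.2%, so the windows at these loci were not set apart by it.

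At the Dntt locus, H3K27ac formed a chain of regions from the Blnk start to the fourth intron of Dntt. Ikaros and CHD4 were called along it, and also farther off in introns 2 and 4 of Blnk. The 3 H3K27ac regions followed most closely around Dntt, each called in all 8 libraries, were an upstream element (chr19:41020265-41024320, intergenic, 6.5 kb from the start site), the start region (chr19:41029371-41033028, first exon and intron 1) and an intragenic region (chr19:41033225-41040487, introns 1 to 4). No Ikaros or CHD4 region lay within 1 kb of the Dntt, Rag1 or Rag2 start.

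**Figure D1:**
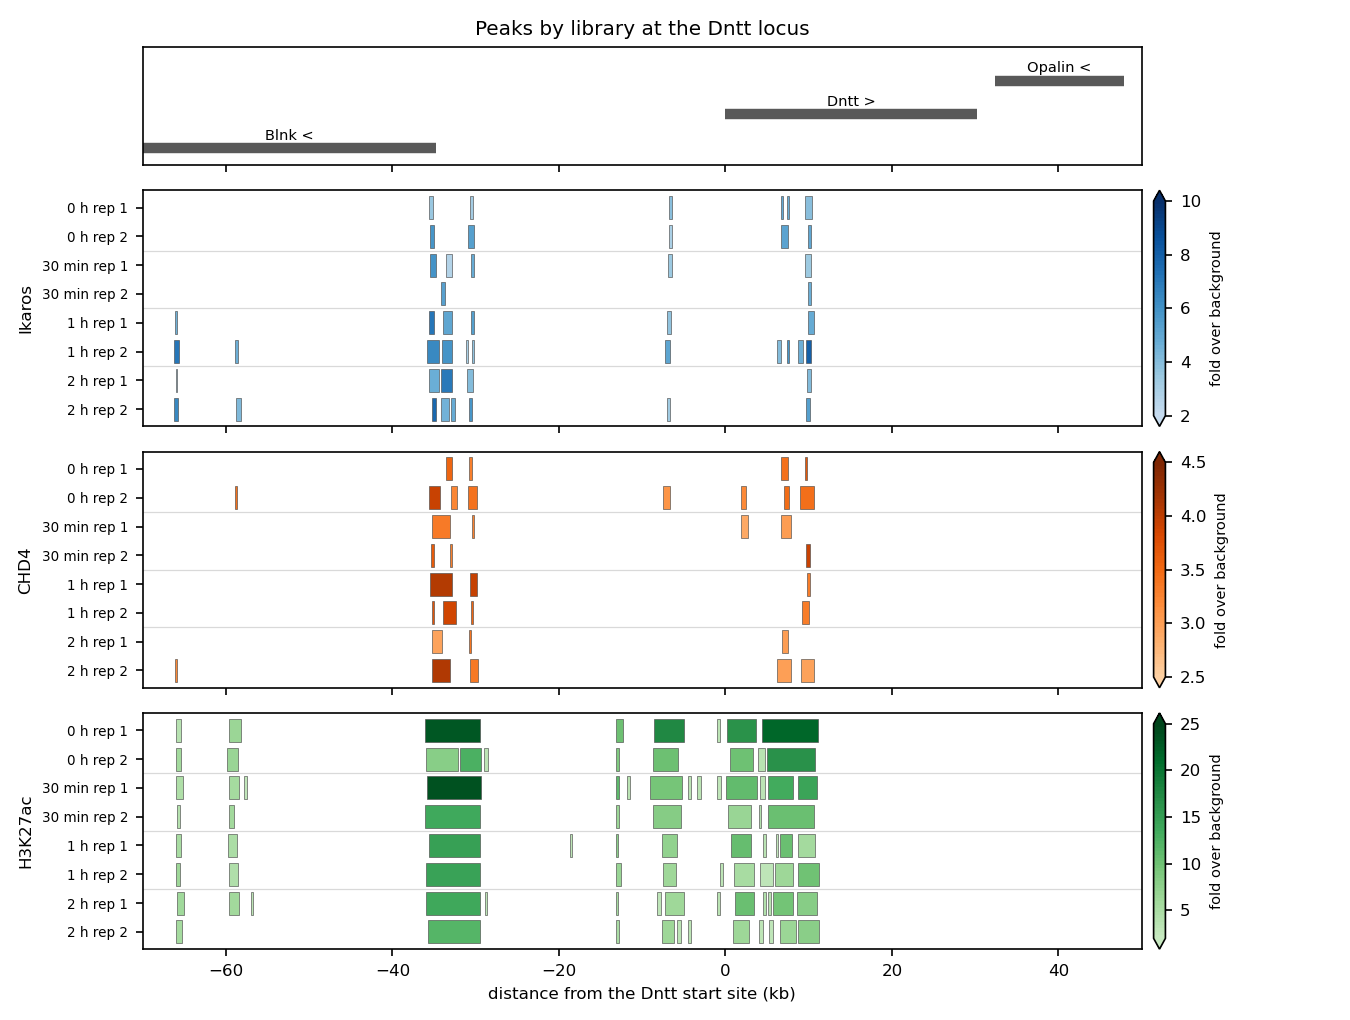
Peaks of each library at the Dntt locus, by distance from the Dntt start site (kb); each box is 1 peak, its shade is the fold over local background, and the gene row gives the direction of transcription. The merged H3K27ac regions spanned the first 11 kb of Dntt apart from short gaps. Peaks covered 10117 and 9256 bp of the gene body at 0 h, 6482 and 8603 bp at 1 h, and 7751 and 7181 bp at 2 h. The intragenic region was held in 1 or 2 peaks at 0 h and in 4 peaks in both 2 h libraries.

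Ikaros in the Dntt gene body was found at 3 intronic positions. The intron 3 region (chr19:41038880-41039936) was the only Ikaros region of either locus called in all 8 libraries, against 9.66% of the Ikaros regions of the series. Its fold was 3.88 and 5.03 at 0 h, 3.35 and 4.69 after 30 min, 4.82 and 8.00 after 1 h, and 4.05 and 5.36 after 2 h. The groups overlapped, with the highest value in 1 h replicate 2, and the change at 2 h was 0.16 on the log2 scale (SE 0.35, limma adjusted p = 0.842).

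The intron 1 region (chr19:41035419-41036941) was called in 3 libraries, at folds of 4.96 and 5.21 in both 0 h libraries, in neither 30 min library, in 1 h replicate 2 alone at 5.79, and in neither 2 h library. Of the 51 regions it alone was present throughout 0 h and absent throughout 2 h, a loss met by 3.59% of all Ikaros regions. With lists of equal size the region was still lost, as were 9.87% of all Ikaros regions at that setting. The peaks rested on 22 fragments (95% interval 13.8 to 33.3) and 23 fragments (14.6 to 34.5) at the summits at 0 h and on 20 (12.2 to 30.9) at 1 h. The remaining position, in intron 2 (chr19:41038020-41038590), was called in 1 h replicate 2 alone, at a fold of 4.64. The Ikaros lists held 9181 and 5373 peaks at 30 min, against 12447 and 14874 at 1 h. A region not called at 30 min, here or below, is therefore not shown to be unbound at that time.

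Ikaros was also called at the element upstream of Dntt. The region in the upstream element (chr19:41022005-41022849) was called in 6 libraries, at folds of 3.88 and 2.92 at 0 h, 3.41 in 30 min replicate 1, 3.69 and 5.11 at 1 h, and 3.21 in 2 h replicate 2. The window around its summit held 1 GGGAA core.

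Farther upstream, at Blnk, Ikaros was called both before and after 4-OHT. At the Blnk start (chr19:40993398-40994891) the folds were 3.48 and 5.87 at 0 h, 5.92 in 30 min replicate 1, 7.1 and 6.35 at 1 h, and 4.67 and 7.68 at 2 h. The adjacent region (chr19:40995089-40996816) was called in neither 0 h library and in both libraries of every later time, at 2.64 and 5.30, then 5.05 and 5.88, then 7.01 and 4.80. A region in Blnk intron 4 (chr19:40963051-40963655) was called at 1 h (4.55 and 7.11) and at 2 h (3.21 and 6.40) and at neither earlier time. Another upstream region (chr19:40998126-40999104) was called in every library but 30 min replicate 2, at folds of 3.17 to 5.81, and 1 more in Blnk intron 2 (chr19:40970302-40971138) was called in replicate 2 alone at 1 h and 2 h, at 4.64 and 4.16. The regions gained at the Dntt locus, meaning called by both 2 h replicates and by no 0 h replicate, were therefore 2 of 9, both at Blnk. The share over all Ikaros regions was 12.0%. With lists of equal size neither was gained. With peaks up to 500 bp apart merged, only the region in Blnk intron 4 was.

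At the Rag locus the only Ikaros region called at 0 h lay upstream of Rag1, and it was called in 2 of the 6 later libraries. Regions upstream of Rag2 were called only once 4-OHT had been given. In all, 3 of 6 Ikaros regions were gained at 2 h, and over both loci 5 of 15. The share over all Ikaros regions was 12.0%, and the Ikaros lists were longer at 2 h (14225 and 14179 peaks) than at 0 h (7822 and 9527). With lists cut to equal size, 1 of the 10 regions left was gained, the one 23.9 kb upstream of Rag2, against 7.63% of all Ikaros regions at that setting.

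The highest Ikaros peak of either locus was at the Rag1 site before 4-OHT. This region (chr2:101650726-101651233, intergenic) had folds of 7.76 and 9.95 at 0 h, no peak in either 30 min library, 4.55 in 1 h replicate 1 and 5.97 in 2 h replicate 1, and no peak in replicate 2 at either of these times. The summits held 35 fragments (95% interval 24.4 to 48.7) and 45 (32.8 to 60.2) at 0 h, 15 (8.4 to 24.7) at 1 h and 22 (13.8 to 33.3) at 2 h. The Ikaros libraries at 0 h were the deepest, at 3.59 and 3.13 fragments per base against 1.98 to 2.85 later. The region was not called in all 8 libraries and so was not tested.

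The Ikaros region 23.9 kb upstream of Rag2 (chr2:101599699-101601123, intron 2 of B230118H07Rik) showed the opposite order. It was called in neither 0 h library. Its folds were 5.22 and 7.71 at 30 min, 5.11 and 4.13 at 1 h, and 5.58 and 6.57 at 2 h. The summit fell on the same base, position 101600779, in 30 min replicate 2, 1 h replicate 2 and 2 h replicate 1, and at 101600761 and 101600739 in 30 min replicate 1 and 2 h replicate 2. In 1 h replicate 1 it lay at 101599913. The number of fragments there was 17 to 32 in the 6 libraries, each over a local background of 1.98 to 7.0.

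The neighbouring region 25.6 kb upstream (chr2:101598735-101599393) had no peak before 1 h. It was called at 1 h (4.26 and 2.63) and at 2 h (2.94 and 3.87). The 30 min Ikaros lists (9181 and 5373 peaks) were shorter than those at 1 h (12447 and 14874). Later binding at this region is therefore not shown. The last gained region, 8.8 kb upstream of Rag2 (chr2:101615619-101616499, intron 1 of B230118H07Rik), was called in 30 min replicate 2 (3.63), 1 h replicate 2 (3.56) and both 2 h libraries (3.12 and 5.56). The remaining regions were a peak 16.3 kb upstream of Rag1 in 2 h replicate 1 (4.42) and one at the Traf6 start in replicate 2 at 1 h (3.71) and 2 h (4.48).

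**Figure D2:**
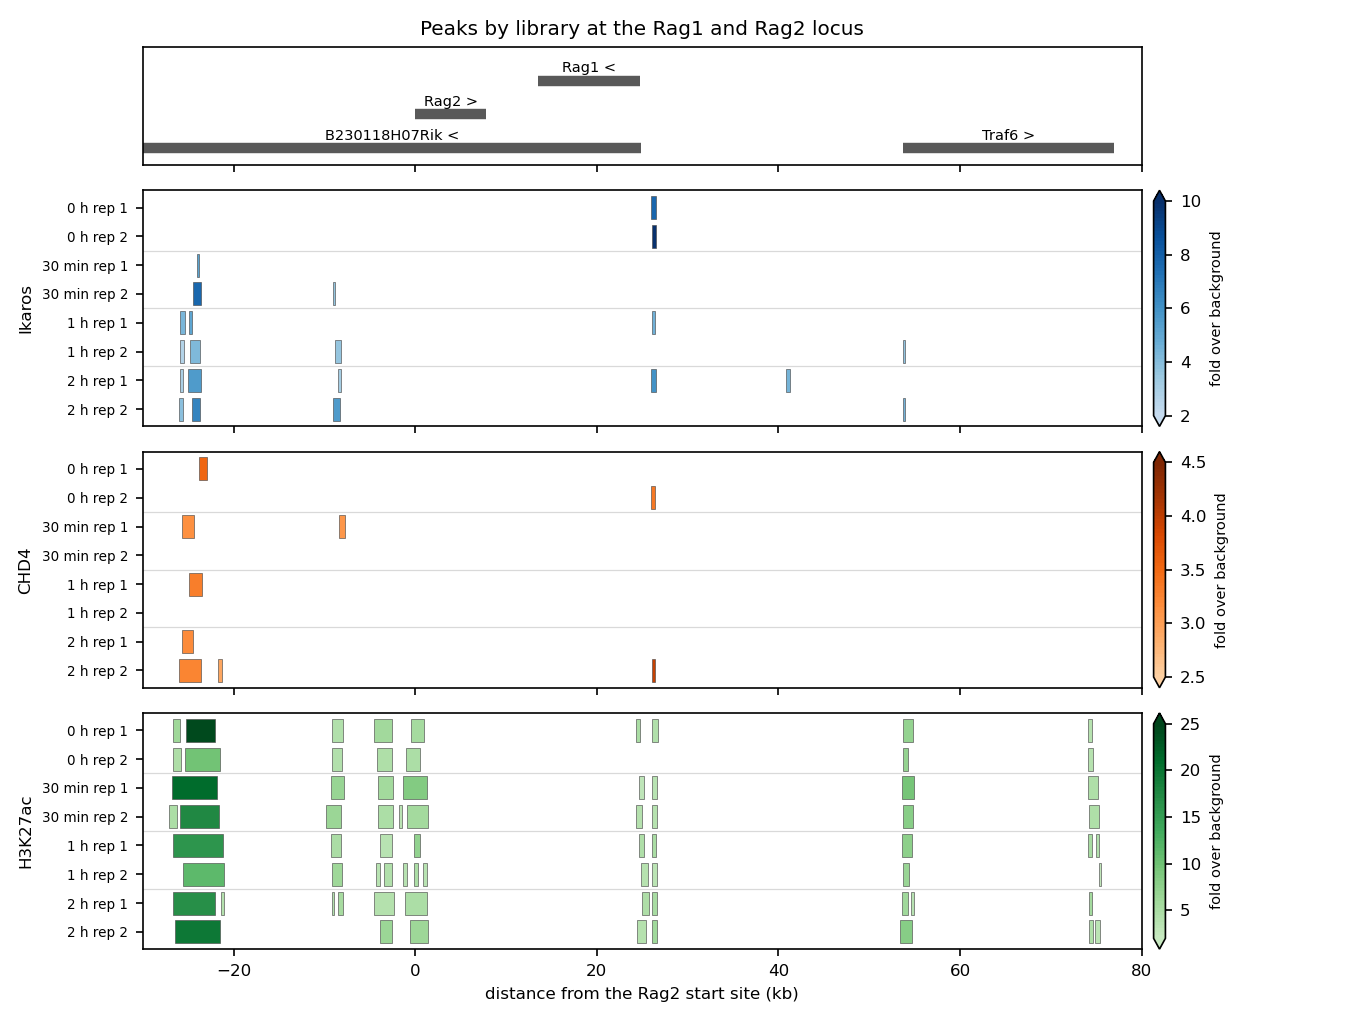
Peaks of each library at the Rag1 and Rag2 locus, by distance from the Rag2 start site (kb), drawn as for Dntt. Ikaros was at the Rag1 site, near 26.3 kb, in both 0 h libraries and upstream of Rag2, near 23.9 kb on the other side, in all 6 libraries after 4-OHT.

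**Figure D3:**
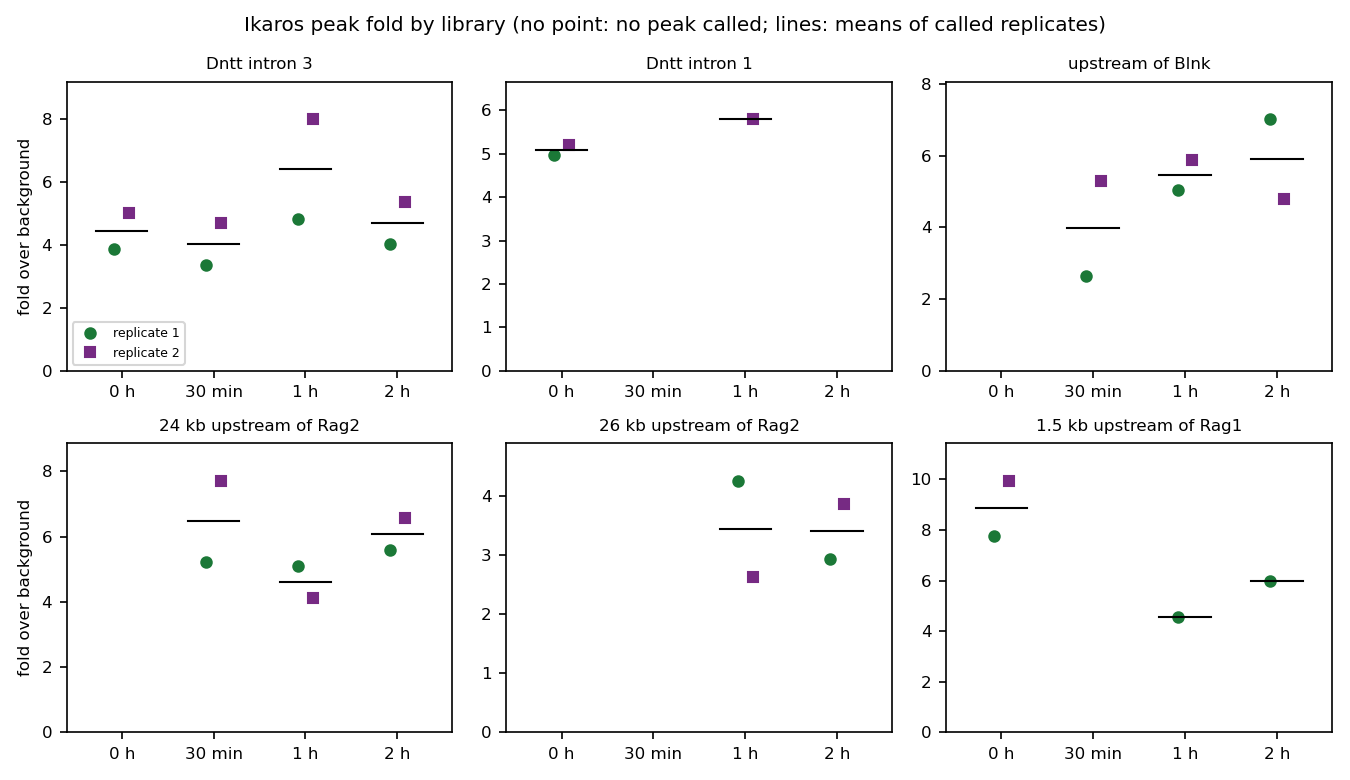
Ikaros fold over local background (y axis, linear) at 6 regions by time after 4-OHT (x axis), with 1 point per library in which a peak was called and a line at the mean of the called replicates. Dntt intron 3 has points at every time, the sites upstream of Blnk and Rag2 have none at 0 h, and the site upstream of Rag1 has its highest points at 0 h.

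Fewer CHD4 regions were called at these loci, and none was gained or lost at 2 h, against 5.30% gained and 1.45% lost over all CHD4 regions. The count of losses depended on the setting, with 1 region lost at a fold of at least 3 (2.52% of all) and 2 with lists of equal size (5.63%), and these were the sites in Dntt introns described below. CHD4 met Ikaros at 10 of its 12 regions (73.4% over the series) and H3K27ac at all 12 (85.1%). The strongest was at the Blnk start (chr19:40993702-40996998), the only CHD4 region of either locus called in all 8 libraries, against 4.71% of all CHD4 regions. Its folds were 3.54 and 3.94 at 0 h, 3.34 and 3.65 after 30 min, 4.08 and 3.89 after 1 h, and 2.94 and 4.10 after 2 h. The change at 2 h was 0.0034 on the log2 scale (SE 0.14, limma adjusted p = 0.996), with 2 h replicate 1 as the lowest value and 2 h replicate 2 as the highest.

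Inside Dntt, CHD4 lay over the same introns as Ikaros. The region over the intron 1 Ikaros site (chr19:41035495-41037131) was called at 3.42 and 3.47 at 0 h, 3.0 in 30 min replicate 1, in neither 1 h library, and at 3.0 and 2.99 at 2 h. The region from intron 2 to exon 4 (chr19:41038219-41039922) was called in 6 libraries, at 3.67 and 3.44 at 0 h, 3.93 in 30 min replicate 2, 3.32 and 3.32 at 1 h, and 2.95 in 2 h replicate 2. A region 2.29 kb downstream of the start had a peak in 0 h replicate 2 (3.2) and in 30 min replicate 1 (2.88), and the upstream element had 1 in 0 h replicate 2 (3.09). CHD4 was also called 30.3 kb upstream of Dntt, in every library but 30 min replicate 2, at 3.27 to 3.97, and in Blnk introns 2 and 4 in 1 library each.

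At the Rag locus, CHD4 was called at the region upstream of Rag2 that gained Ikaros (chr2:101598702-101601849) in 0 h replicate 1 (3.53), 30 min replicate 1 (3.14), 1 h replicate 1 (3.30) and both 2 h libraries (3.18 and 3.24). It covered 912 bp in the 0 h library, 1296 bp at 30 min, 1486 bp at 1 h, and 1167 and 2462 bp in the 2 h libraries, and the widest value came from the longest CHD4 list. The site upstream of Rag1 (chr2:101650724-101651128) had a CHD4 peak in replicate 2 at 0 h (3.36) and at 2 h (3.96). The other CHD4 regions upstream of Rag2, at 21.5 kb and 8.0 kb, were each called in 1 library. The number of CHD4 peaks in a list ran from 2488 to 9593, and the 2 h replicate 2 list was the longest.

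H3K27ac at the upstream element and in the intragenic region of Dntt had its highest values at 0 h, and every later library was below both 0 h libraries. How many of all regions showed this order was not counted. The median fold over all tested regions was also lower at 2 h (8.50 and 8.24) than at 0 h (12.6 and 10.5). The 30 min and 1 h medians overlapped those at 0 h. At the Dntt start the folds of the times overlapped, as they did in the broad region upstream of Rag2. The fold over local background was computed by the authors' peak caller, and the number of fragments at each summit was recovered from the fold and its p-value, so both are given below. Fragments are set over the mean coverage of the library, 3.75 to 4.34 fragments per base.

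The Dntt intragenic region, over the intronic Ikaros and CHD4 sites, had folds of 21.7 and 16.6 at 0 h, 14.3 and 10.5 after 30 min, 10.4 and 9.97 after 1 h, and 9.68 and 7.78 after 2 h. Every library after 4-OHT was below both 0 h libraries, an order not counted over all regions. The summits held 118 and 96 fragments at 0 h and 48 and 56 at 2 h, or 25 ± 3.84 and 13 ± 1.28 times the mean coverage (SD, n = 2). The bases covered were 6650 and 6557 at 0 h, and 5518 and 5309 at 2 h. The summit was in intron 1 in 5 libraries and near exon 3 in the other 3.

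The upstream element of Dntt had folds of 17.7 and 10.3 at 0 h, 9.47 and 8.16 after 30 min, 7.24 and 6.04 after 1 h, and 5.99 and 6.15 after 2 h. The groups at 0 h and at each later time did not overlap, and the share of all regions doing so was not counted. The 2 h values were close together. Its summits held 96 fragments (95% interval 77.8 to 117.2) and 89 (71.5 to 109.5) at 0 h, 44 and 41 at 30 min, 40 and 34 at 1 h, and 30 (20.2 to 42.8) and 31 (21.1 to 44.0) at 2 h. Relative to mean coverage the 0 h level was 21.6 ± 1.33 and the 30 min level 11 ± 0.983, followed by 9.14 ± 0.103 after 1 h and 7.65 ± 0.0957 after 2 h (SD, each n = 2).

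The Dntt start region had folds of 16.4 and 10.0 at 0 h, 11.1 and 6.54 after 30 min, 10.7 and 5.18 after 1 h, and 10.5 and 6.15 after 2 h. The groups overlapped, and replicate 1 was above replicate 2 at every time. The fragments at its summits were 89 and 87 at 0 h, 74 and 62 after 30 min, 60 and 42 after 1 h, and 52 and 44 after 2 h, with replicate 2 measured over a higher local background. A small region just upstream of the start (chr19:41028229-41028966) was called in replicate 1 at 0 h, 30 min and 2 h and in replicate 2 at 1 h, at folds of 2.75 to 3.37.

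Upstream of Rag2, the broad region over the Ikaros sites (chr2:101597605-101603652) had folds of 24.4 and 9.82 at 0 h, 21.3 and 17.7 after 30 min, 16.1 and 11.3 after 1 h, and 16.8 and 19.6 after 2 h. The 0 h values were the farthest apart, and both 2 h folds lay between them. The 0 h summits held 133 and 114 fragments over local backgrounds of 4.25 and 10.3, and the 2 h summits held 96 and 117 over 4.68 and 4.80, so that 2 h replicate 1 held fewer than either 0 h library. Relative to mean coverage the 0 h level was 28.9 ± 3.37 and the 2 h level 26.7 ± 3.44 (SD, each n = 2).

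The Rag gene starts carried less of the mark. The Rag2 start region (chr2:101623358-101626182) had folds of 5.39 and 4.69 at 0 h, 8.43 and 5.51 after 30 min, 7.06 and 4.64 after 1 h, and 4.64 and 6.15 after 2 h, and the groups overlapped. The Rag1 start region (chr2:101648979-101650479) was called at 4.96 in 0 h replicate 1, in no peak of 0 h replicate 2, at 2.92 and 3.91 at 30 min, at 4.44 and 3.77 at 1 h, and at 4.55 and 3.86 at 2 h. Next to it, the region over the Ikaros site upstream of Rag1 (chr2:101650741-101651443) was also missing from 0 h replicate 2, and its other folds were 4.23 at 0 h, 3.54 and 3.71 after 30 min, 4.97 and 3.27 after 1 h, and 5.21 and 5.95 after 2 h. Regions 3.2 kb and 9.0 kb upstream of Rag2 had folds of 3.5 to 6.34 in 8 libraries and 4.12 to 6.62 in 7.

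Away from Dntt itself, H3K27ac formed a broad region at the Blnk start (chr19:40993153-40999876, 6724 bp). Its folds were 23.2 and 12.7 at 0 h, 23.8 and 13.7 after 30 min, 14.8 and 14.5 after 1 h, and 13.8 and 12.1 after 2 h, and the summits held 143 and 129 fragments at 0 h and 73 and 62 at 2 h. A region 13 kb upstream of Dntt (chr19:41016102-41016906) had folds of 10.2 and 8.66 at 0 h, 11.4 and 6.23 after 30 min, 7.63 and 6.49 after 1 h, and 5.38 and 4.81 after 2 h, with its highest value in 30 min replicate 1. Blnk intron 4 (chr19:40963221-40964265), where Ikaros was gained, had 3.59 and 5.63 at 0 h, 4.47 and 3.91 after 30 min, 5.14 and 6.10 after 1 h, and 5.93 and 5.38 after 2 h, and the groups overlapped. A region in Blnk intron 2 (chr19:40969439-40971026) was called in 7 libraries at 4.37 to 6.49.

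On the Rag1 side, the Traf6 start had folds of 6.95 and 7.01 at 0 h, 9.47 and 7.96 after 30 min, 7.59 and 6.49 after 1 h, and 5.93 and 8.05 after 2 h. Exon 8 of Traf6 (chr2:101698751-101700220) had 3.76 and 3.72 at 0 h, 4.42 and 4.49 after 30 min, 5.14 and 2.81 after 1 h, and 5.54 and 4.43 after 2 h. The remaining 8 H3K27ac regions were called in 1 or 2 libraries each, at folds of 2.68 to 3.37.

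**Figure D4:**
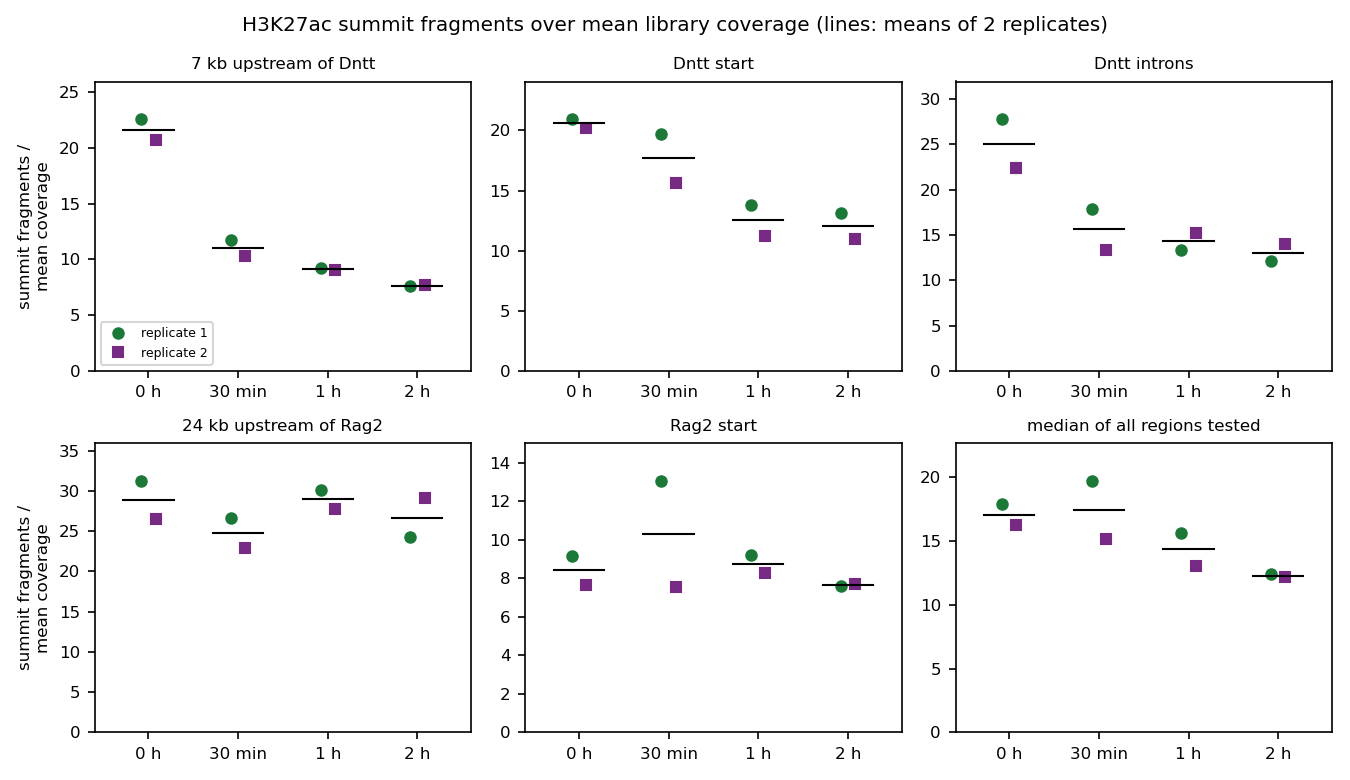
Fragments at the H3K27ac summit divided by the mean coverage of the library (y axis, linear) by time after 4-OHT, with 1 point per library and a line at the mean of 2 replicates. The Dntt upstream element went from 21.6 to 7.65 and the Dntt intragenic region from 25 to 13, the region upstream of Rag2 was 28.9 at 0 h and 26.7 at 2 h, and the median of all regions tested went from 17.1 to 12.3.

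No H3K27ac region was gained or lost at 2 h at either locus, while 3.73% and 2.78% of all H3K27ac regions were. Of the 24 regions, 11 were called in all 8 libraries (37.4% over the series) and could be tested by limma on the log2 fold, with each library centred on its median. The other 13 did not pass this filter, and over the 3 targets 13 of the 51 regions were tested. None of the 11 passed an adjusted p of 0.05, and 5 had an unadjusted p under 0.05, as did 15.9% of all tested regions (2347 of 14716). Over all 14716 tested regions 0.183% were called higher and 0.224% lower. For Ikaros, 1.21% of 2305 regions were called higher and 4.69% lower, and for CHD4 0.415% of 723 higher and 0.138% lower, with the single tested region of each target at these loci not called and above an unadjusted p of 0.05. Every tested region had a peak in all 8 libraries, 0 h included. Regions gained or lost at 2 h could therefore not enter these shares.

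After centring, the regions of the loci had medians of opposite sign. The 6 tested Dntt regions had a median log2 change of −0.32 at 2 h and the 5 tested Rag regions one of 0.55, against 0.05 over all regions. The Dntt upstream element was at −0.69 (SE 0.28, limma adjusted p = 0.24), after −0.65 at 30 min and −0.73 at 1 h. Its 2 h value was −0.42 without 0 h replicate 1 and −0.95 without 0 h replicate 2. The Dntt intragenic region was at −0.67 (SE 0.26, limma adjusted p = 0.234), after −0.66 and −0.60. The start region was at −0.22 (SE 0.32, adjusted p = 0.796), after −0.63 and −0.49.

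On the same scale the region upstream of Rag2 was at 0.69 at 2 h (SE 0.32, limma adjusted p = 0.309), but at 0.16 without 0 h replicate 2 and 1.22 without 0 h replicate 1. The Rag2 start was at 0.55 (SE 0.28, adjusted p = 0.356). Exon 8 of Traf6 had the largest value, 0.87 (SE 0.30, adjusted p = 0.18), and the Traf6 start and the region 3.2 kb upstream of Rag2 were both at 0.45. The Blnk start was at 0.05 and a region 13 kb upstream of Dntt at −0.43. Blnk intron 4, where Ikaros was gained, was at 0.79 (SE 0.35, adjusted p = 0.282), with 0.34 without 0 h replicate 1 and 1.25 without 0 h replicate 2.

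These signs are relative to the library median, which moved. The 0 h libraries had median H3K27ac folds of 12.6 and 10.5, the 30 min libraries 13.8 and 10.1, the 1 h libraries 11.1 and 7.95, and the 2 h libraries 8.50 and 8.24. Without centring the median change over all regions at 2 h was −0.41 on the log2 scale, and the values were −1.15 for the upstream element, −1.13 for the intragenic region and 0.23 for the region upstream of Rag2.

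When the summit fragments over mean coverage replaced the fold, 4 of the 11 regions passed and all 4 were lower at 2 h. They were the Dntt upstream element (−1.50, limma adjusted p = 6.08e-07), the intragenic region (−0.94, adjusted p = 0.0029), the start region (−0.78, adjusted p = 0.0151) and the Blnk start (−0.91, adjusted p = 0.003). Over the series 26.7% of the tested regions were called lower on this scale and 1.02% higher, with a median change of −0.40. The region upstream of Rag2 was at −0.12 (SE 0.25, adjusted p = 0.735).

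Centring those fragment values on the library median, a setting chosen after seeing the data, left 3 regions called at 2 h. The upstream element was at −1.03 (SE 0.19, limma adjusted p = 0.000523) and the Blnk start at −0.44 (adjusted p = 0.0407), while exon 8 of Traf6 was at 0.82 (adjusted p = 0.0164). On this scale 7.82% of all regions were called lower and 13.9% higher. The upstream element had been called at 30 min (−0.99, adjusted p = 0.00255) and at 1 h (−0.99, adjusted p = 0.001) too. The intragenic region was called at 30 min (−0.71, adjusted p = 0.0166) and 1 h (−0.55, adjusted p = 0.0297) and was at −0.46 at 2 h (adjusted p = 0.0558). At 1 h the Dntt start (−0.47, adjusted p = 0.0487) and the Blnk start (−0.47, adjusted p = 0.0373) were called as well. Over the series 3.95% of regions were called lower and 1.05% higher at 30 min, and 7.39% lower and 9.29% higher at 1 h.

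**Figure D5:**
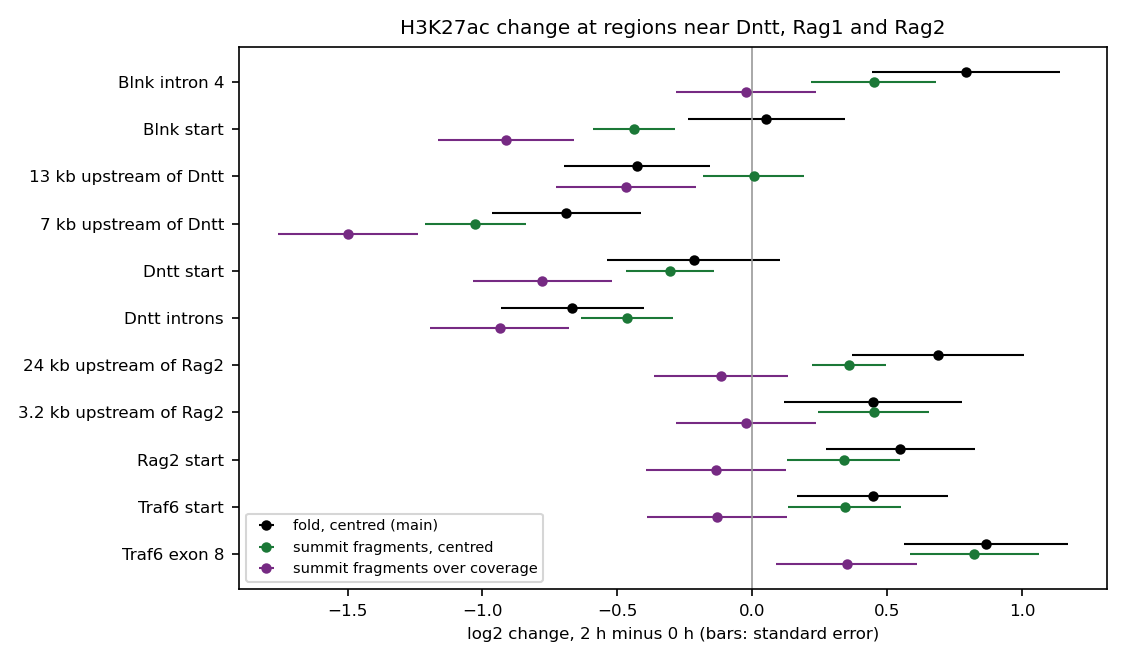
Log2 change of H3K27ac at 2 h against 0 h (x axis, bars are standard errors) at the 11 tested regions, for the centred fold and for the summit fragments with and without centring. The Dntt upstream element lies below 0 on all 3 scales (−0.69, −1.03 and −1.50), and the region upstream of Rag2 is at 0.69, 0.36 and −0.12.

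A ratio of regions within a library needs no scaling between libraries. The summit fragments of the Dntt upstream element, divided by those upstream of Rag2, gave 0.722 and 0.781 at 0 h, 0.44 and 0.451 after 30 min, 0.305 and 0.327 after 1 h, and 0.312 and 0.265 after 2 h. The ratio for the intragenic region was 0.887 and 0.842 at 0 h and 0.500 and 0.479 at 2 h. For the start region it was 0.669 and 0.763 at 0 h and 0.542 and 0.376 at 2 h. The start region had 0.74 and 0.681 at 30 min, which overlapped 0 h. In each case both 2 h values were below both 0 h values, and this was also so for the median of all tested regions over the same denominator, at 0.571 and 0.614 at 0 h and 0.51 and 0.419 at 2 h. These pairs of regions were chosen after their values were seen, and 2 libraries against 2 cannot give an exact two-sided permutation p below 0.333.

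The other genes of V(D)J recombination and of the end joining that follows it were described by the same windows of 1 kb around annotated start sites. The list held the 3 genes above with Hmgb1 and Hmgb2, which help RAG bind DNA, the kinases Prkdc and Atm, the nuclease gene Dclre1c, the Ku genes Xrcc5 and Xrcc6, the ligation genes Lig4, Xrcc4, Nhej1 and Paxx, and the polymerase genes Polm and Poll. H3K27ac was at the start of all 16 genes and in all 8 libraries at 15, with Rag1 the exception, against 42.4% of all 21924 protein-coding genes in all 8. The shares that follow are over the 9292 genes with H3K27ac at the start in all 8 libraries. Ikaros was at 13 of 16 (81.7%), the 3 without it being Dntt, Rag1 and Rag2. It was called in both 2 h libraries at 9 genes (50.2%) and in both 0 h libraries at 4 (28.2%), and it was gained at 3 (14.1%), which were Dclre1c, Prkdc and Poll. CHD4 was at 7 genes (54.3%), in all 8 libraries at Polm alone (2.56%), and was gained at none (5.15%).

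Of these start regions 3 could be tested for Ikaros, 1 for CHD4 and 15 for H3K27ac. Where a gene had more than 1 testable region, the one with the highest mean fold over the 8 libraries was taken. That mean includes the 2 h libraries, so the choice can favour a region that rose. Xrcc6 had 4 H3K27ac regions at its annotated starts. Ikaros at Polm was at 1.05 on the log2 scale at 2 h (SE 0.35, limma adjusted p = 0.069) and at Xrcc4 at 0.88 (SE 0.35, adjusted p = 0.135), whereas at Xrcc6 it was at 0.11 (SE 0.36, adjusted p = 0.9). The Ikaros region tested at Xrcc6 (chr15:82015725-82017024) does not overlap the H3K27ac region given next. For H3K27ac, 1 gene passed, Xrcc6, at 1.87 (SE 0.26, adjusted p = 0.0193), where 0.183% of all tested regions were called higher and 0.224% lower. The call rests on all 4 libraries at 0 h and 2 h, since no region of the series was called when any 1 of them was left out. That region (chr15:82025576-82030861) lies at an internal annotated start of Xrcc6, inside the overlapping gene Desi1, and its folds were 8.98 and 6.17 at 0 h and 20.7 and 18.7 at 2 h. The median change over the 15 genes was 0.15, with 8 above 0.

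The genes whose start-site H3K27ac moved most like that of each member over the 8 libraries were sought among 8598 start-site regions of protein-coding genes called in all 8, by Pearson's r of the centred log2 fold. For Dntt they included Sdccag8 (r = 0.944) and Alg8 (r = 0.919). For Rag2 they were Socs6 (r = 0.979), Nek9 (r = 0.97) and Cyth2 (r = 0.964). The Rag1 start was not called in all 8 libraries, and the nearest region that was is the Rag2 start, which gives the same genes. These are the highest of many correlations over 8 libraries that share depth and time, and they stand as a description.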

How the data were processed

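ChIP-seq peak lists of HA-Ikaros, CHD4 and H3K27ac from 24 libraries (2 replicates at each of 4 times for each target) were analysed, and the 8 input libraries were not used here. Reads were processed by the authors on mm10 and the submitters' processing notes name Bowtie2 2.4.2, Picard 2.23.7, MACS2 2.2.7.1 and deepTools 3.5.0. Peaks were called per library, narrow for Ikaros and H3K27ac and broad for CHD4. The control used for each list is not given in the sources used here. The deposited lists give for each peak the fold over local background, a ratio, and its p and q values as −log10 values. The deposited score column was not used. The lists hold no read counts, so no count model was fitted and library depth is known only through the coverage recovered below.

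Peaks of a target that shared at least 1 bp were merged across the 8 libraries. Each region took its highest fold in a library. Regions called in all 8 libraries were tested on the log2 fold, each library centred on its median, with limma 3.58.1 in R 4.3.3 (4 time groups, trended moderation, no block, Benjamini-Hochberg over all regions tested, threshold 0.05). A region called by both 2 h replicates and by no 0 h replicate was counted as gained, and the reverse as lost. Summit fragments of the narrow lists were taken as the whole number that best gives both the fold, with a pseudocount of 1, and the −log10 p. Of peaks with a −log10 p under 30, at least 99.95% in each library were met within 0.002, and higher peaks, which include the strongest H3K27ac summits, were solved with the same scale but not checked to this tolerance. Intervals are 95% exact Poisson intervals and cover counting error only. Scripts were tested on simulated data. Python 3.11.15 was used for the remaining steps, annotation was GENCODE M21, and sequences came from RefSeq on GRCm38.p6.

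The regions given in full were those within 1 kb of a member's start site, the 3 with the highest mean rank of fold per target and locus, those gained or lost, and those past the limma threshold. Genes most alike were the 3 with the highest Pearson r over 8 libraries. Some genes that these rules or the marker lists name are not reported here. The members and gene lists were chosen with earlier results of these data known. Alternatives were the region's value, centring, quantile normalization, filters on calls and folds, the replicate block, a 50 kb window, stricter thresholds, lists of equal size, merging within 500 bp, summit fragments and leaving out each library, and centred summit fragments and the alternatives for lost regions were added after seeing the data.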

Additional observations from a re-analysis of the deposited data

How the results depend on the processing

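No Ikaros or CHD4 region at these loci passed limma under any alternative run. Ikaros gains, 5 regions, came to 3 with a −log10 q of at least 3 (series share 11.2%), 1 with lists of equal size (7.63%) and 3 with peaks up to 500 bp apart merged (13.4%), and to 7 and 6 without 2 h replicate 1 and 2 (25.8% and 26.1%, against 12.0% with all libraries). Leaving out a library, CHD4 gains ran from 0 to 2 (1 without 0 h replicate 1, series share 5.94%, and 2 without 2 h replicate 1, 34.0%) and H3K27ac gains from 0 to 2 (2 without 0 h replicate 1, 5.38%, and 1 without 2 h replicate 1 or 2, 8.66% and 24.8%). Losses were recomputed under the same settings after seeing the data. CHD4 losses, 0 regions, came to 1 at a fold of at least 3 (2.52%) and 2 with lists of equal size (5.63%), and leaving out a library they ran from 0 to 3 (3 without 0 h replicate 1, 10.7%, and 1 without 2 h replicate 2, 4.78%). Ikaros losses ran from 1 to 2 (2 without 2 h replicate 1 or 2, 4.97% and 5.89%) and H3K27ac losses from 0 to 2 (2 without 2 h replicate 1, 4.58%). H3K27ac calls, 0 on the fold, were 4 for summit fragments over mean coverage and 3 for centred summit fragments, the latter chosen after seeing the data. The cause was not tested.

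Some log2 changes at 2 h turned sign. CHD4 at the Blnk start was at −0.10 without centring and −0.031 with quantile normalization, −0.09 without 0 h replicate 1, and ran from −0.20 (without 2 h replicate 2) to 0.21 (without 2 h replicate 1). H3K27ac at the Blnk start was at −0.41 without centring, −0.25 without 0 h replicate 2, −0.02 without 2 h replicate 1 and 0.36 without 0 h replicate 1, and −0.91 and −0.44 for uncentred and centred summit fragments. The Dntt start was at 0.01 without 0 h replicate 1 and 0.15 without 2 h replicate 2, and at −0.58 without 2 h replicate 1. Without centring, the regions 3.2 kb upstream of Rag2 and at the Traf6 start were at −0.0136 and −0.014. Over mean coverage, summit fragments were at −0.023 in Blnk intron 4, −0.12 upstream of Rag2, −0.0229 at 3.2 kb, −0.13 at the Rag2 start and −0.13 at the Traf6 start, and centred ones were at 0.0051 for the region 13 kb upstream of Dntt.

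Leaving out 1 library also moved values that kept their sign. The region 3.2 kb upstream of Rag2 ran from 0.10 without 2 h replicate 2 to 0.79 without 2 h replicate 1, the Rag2 start from 0.32 to 0.77 and the Traf6 start from 0.21 to 0.69 in the same order, and Ikaros in Dntt intron 3 from 0.06 to 0.26.

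Over all H3K27ac regions, 27 were called higher and 33 lower, against 5 and 421 without centring and 0 and 0 without any single 0 h or 2 h library. With the replicate number as a block, 0 regions at these loci were called for each target. Same-numbered libraries did not deviate together throughout (correlations of −0.05 to 0.18 over the targets), so the numbers were not taken to pair samples. These values were centred within each library, so the correlations cannot show a shift of a whole library. The median H3K27ac fold was higher in replicate 1 than in replicate 2 at every time. Whether the numbers pair samples is therefore not settled.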
